A study of Mus musculus with 8 samples.

Results

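The genes described are 8 inflammatory genes, the chemokine ligands Ccl3, Ccl4, Ccl9, Ccl12, Ccl24, Cxcl2 and Cxcl3 with the cytokine Tnf, set beside the stromal chemokine Cxcl12. They are 9 of the 739 genes in the deposited tables, which list only genes the study called different between genotypes, at a false discovery rate (FDR) under 0.05 and a change of at least 2-fold. The 8 inflammatory genes are listed as lower in mutant GFP-negative cells, and Cxcl12 as higher in mutant GFP-positive cells. The genes were thus chosen by their measured genotype difference in these 2 contrasts, whose values are given as descriptions without a test.

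RNA was sequenced from limb buds of C57BL/6 mouse fetuses at E13.5, when the limb skeleton is laid down as cartilage. WT fetuses were Sox9+/IRES-EGFP and mutant fetuses Sox9+/Y440X-IRES-EGFP (called Y440X below), so both genotypes carried the EGFP reporter on 1 Sox9 allele next to an untagged one. The Y440X change in SOX9, the transcription factor of cartilage formation, models campomelic dysplasia. Buds were digested with collagenase and neutral protease for under an hour at 37 °C and sorted into GFP-positive cells, in which the tagged allele is transcribed, and GFP-negative cells, which make up the rest of the limb. There were 4 groups of 2 libraries, WT and Y440X in each fraction. In each group replicate 1 was forelimb and replicate 2 hindlimb, each from pooled buds (4 to 6 pairs per genotype), so p-values for genotype and fraction rest on how far the single forelimb and hindlimb libraries of a group differ. Those of the limb comparison measure what is left once the mean limb difference is taken out. Each genotype had its own pools, and genotype and pool cannot be told apart.

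Effective library sizes ranged from 38571000 to 51146000 reads. Levels are counts per 1e+06 reads of these sizes (CPM), or, to compare genes, CPM per kilobase of gene length (RPKM). Cartilage markers, 7 of 7 in the tables, marked the GFP-positive fraction, with a summed level of 24956 to 36790 CPM in WT and 8591 to 11232 CPM in Y440X, against 219 to 451 CPM in the GFP-negative libraries. Macrophage markers, 15 of 18 in the tables, marked the GFP-negative fraction, with a sum of 524 to 611 CPM in WT and 132 to 163 CPM in Y440X, against 10.3 to 15.9 CPM in the GFP-positive libraries. In bulk RNA, fewer cells of a type and less RNA per cell cannot be told apart.

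Chemokines are small secreted proteins that steer migrating cells through G-protein-coupled receptors. Ccl3 and Ccl4 attract monocytes and macrophages, and Ccl3 and Ccl9 bind Ccr1, a receptor of these cells. Ccl12 is a ligand of Ccr2, which draws monocytes, and Ccl24 of Ccr3, which draws eosinophils. Cxcl2 and Cxcl3 bind Cxcr2 and attract neutrophils. Tnf is a cytokine made largely by macrophages. These genes are induced in activated macrophages, in many cases through NF-kB. Cxcl12, made by stromal and mesenchymal cells and by endothelium, acts through Cxcr4 to hold and guide blood progenitors and vessels, and is cleared by the scavenger receptor Ackr3.

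The 9 genes lie on 4 chromosomes of the mouse genome (GRCm38, GENCODE M21). Ccl9 (chromosome 11, 83572919 to 83578636, minus strand), Ccl3 (83647844 to 83649355, minus strand) and Ccl4 (83662584 to 83664683, plus strand) are neighbours, with 13.2 kb between Ccl3 and Ccl4. Ccl12 lies on the same chromosome at 82101845 to 82103400, on the plus strand. Cxcl3 (chromosome 5, 90786103 to 90789600) and Cxcl2 (90903871 to 90905938) are both on the plus strand with 114 kb between them. Ccl24 is on chromosome 5 at 135569937 to 135573049 (minus strand), Cxcl12 on chromosome 6 at 117168535 to 117181367 (plus strand) and Tnf on chromosome 17 at 35199381 to 35202007 (minus strand). No other annotated gene overlapped any of the 9 (0 of 9). Cxcl2 and Cxcl3 are paralogs, and 5.84% and 3.51% of the 50-base stretches of their transcripts were identical between them, so a small part of their reads could be assigned to either.

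RefSeq promoter sequences (GRCm38.p6, 250 bases before to 50 bases after the transcript start) were at hand for 7 of the 9 genes, all but Ccl4 and Ccl24. They were searched on both strands for GGGNNTTTCC, one form of the NF-kB site, which is present in 1.63% of all 32851 promoters. It occurred in 3 of the 7, on the plus strand of Cxcl2 starting 97 and 78 bases before the transcript start and of Cxcl3 starting 73 bases before it, and on the minus strand of Ccl9. The promoters of the neutrophil-attracting pair, which had the largest genotype ratios of the 9 in GFP-negative cells, are printed with the match in capitals. They are followed by those of Tnf and Cxcl12, where these letters did not occur. Ccl9, whose promoter has a match but is not printed, had a WT over Y440X ratio of 2.66-fold there. This was below Ccl3 (4.95-fold), Ccl12 (3.57-fold) and Tnf (4.69-fold), which had no match, and above Cxcl12 (1.09-fold), which had none either. Whether a match goes with the genotype ratio was not tested. A match describes the letters only and shows no binding.
Cxcl2 (chr5:90903649-90903948, plus strand): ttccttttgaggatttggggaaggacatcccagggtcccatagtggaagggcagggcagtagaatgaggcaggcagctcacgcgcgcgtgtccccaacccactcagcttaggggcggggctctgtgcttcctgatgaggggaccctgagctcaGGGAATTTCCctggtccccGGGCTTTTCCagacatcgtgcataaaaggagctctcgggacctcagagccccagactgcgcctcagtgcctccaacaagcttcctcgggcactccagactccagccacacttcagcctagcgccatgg
Cxcl3 (chr5:90785851-90786150, plus strand): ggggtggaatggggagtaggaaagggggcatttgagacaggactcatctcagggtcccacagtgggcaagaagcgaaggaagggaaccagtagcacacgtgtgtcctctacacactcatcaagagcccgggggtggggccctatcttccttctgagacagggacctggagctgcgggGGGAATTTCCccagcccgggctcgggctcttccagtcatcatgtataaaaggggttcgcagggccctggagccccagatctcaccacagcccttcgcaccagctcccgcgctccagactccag
Tnf (chr17:35201958-35202257, minus strand): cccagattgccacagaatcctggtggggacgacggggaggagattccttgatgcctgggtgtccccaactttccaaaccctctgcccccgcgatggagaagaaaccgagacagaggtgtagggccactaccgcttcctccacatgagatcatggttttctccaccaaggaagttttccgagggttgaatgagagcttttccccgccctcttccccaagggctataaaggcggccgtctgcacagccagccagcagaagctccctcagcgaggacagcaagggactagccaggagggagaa
Cxcl12 (chr6:117168285-117168584, plus strand): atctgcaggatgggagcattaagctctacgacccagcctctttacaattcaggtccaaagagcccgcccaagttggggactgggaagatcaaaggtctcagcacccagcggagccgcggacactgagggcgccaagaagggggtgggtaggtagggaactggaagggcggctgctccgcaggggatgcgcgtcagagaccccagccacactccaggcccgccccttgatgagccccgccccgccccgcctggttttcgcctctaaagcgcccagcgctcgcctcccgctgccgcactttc

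In GFP-negative cells, the fraction where these genes were abundant, all 8 inflammatory genes were lower in Y440X, by 2.66-fold for Ccl9 to 21.6-fold for Cxcl3, while Cxcl12 differed by 1.09-fold. Their lower level here is what put the 8 in the tables, where 60.4% of all 739 genes were at least 2-fold lower in this contrast, and scaling to the listed genes left all 8 below 0, 6 of them past 2-fold. The median log2 fold change of the 8 (Y440X over WT) was -2.39, against -1.15 over all listed genes. In the authors' deposited table the FDR of the 8 ran from 0.00133 for Ccl3 to 0.047 for Ccl12, the latter just inside the threshold, and the smallest change was the log2 fold change of -1.41 of Ccl9. Genes outside the thresholds were not analysed here.

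**Figure D1:**
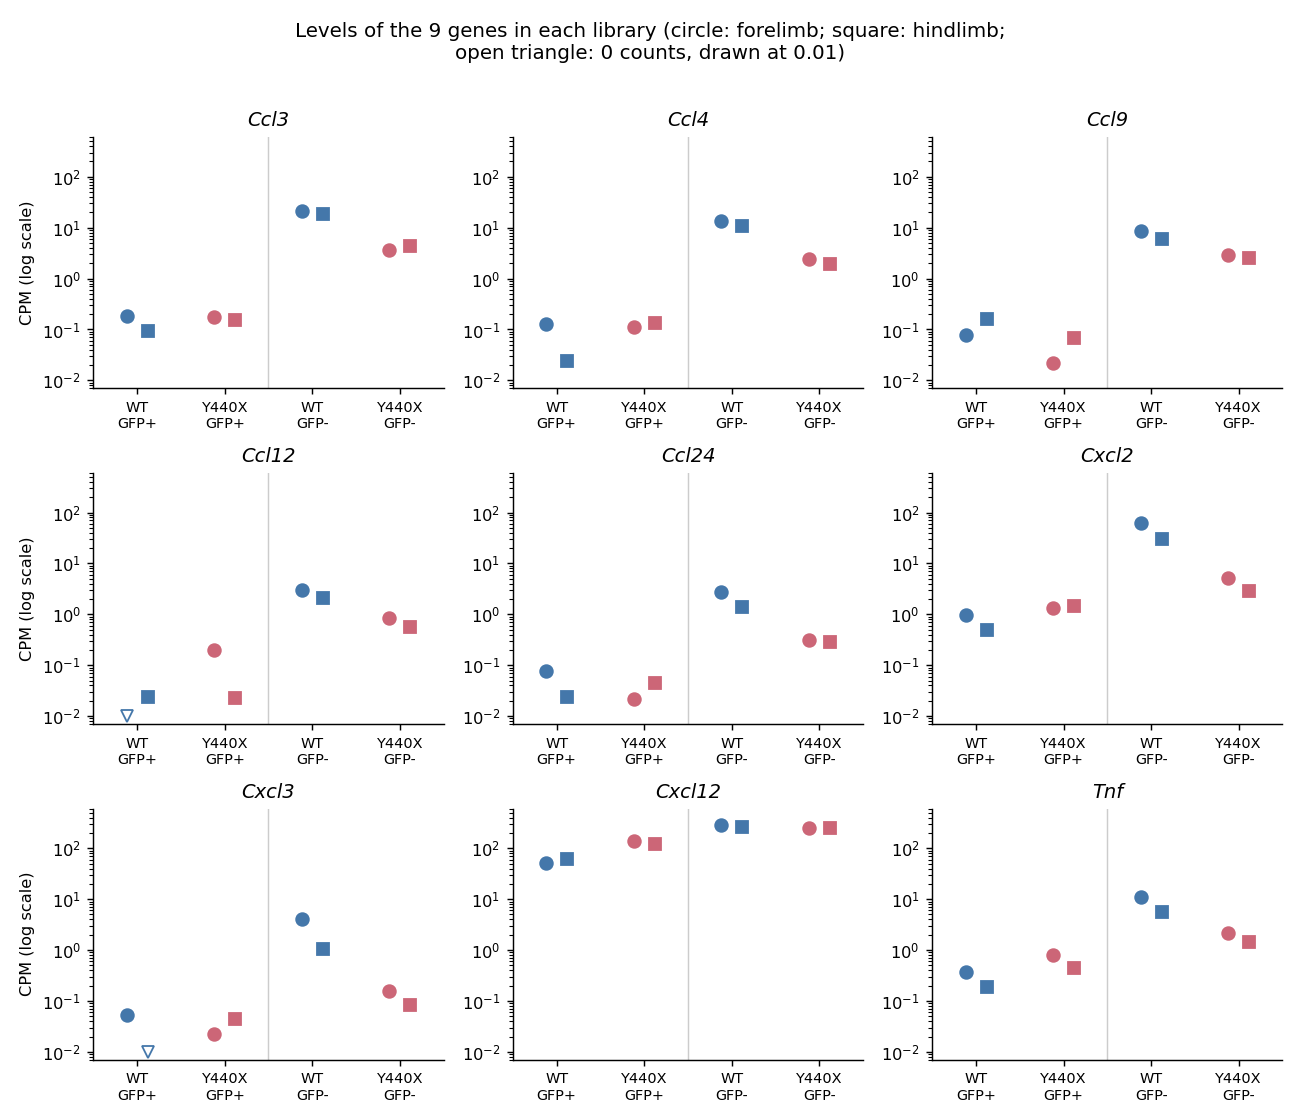
Level of each of the 9 genes in each library, in CPM on a log axis, with 1 panel per gene; blue points are WT, red points Y440X, circles forelimb, squares hindlimb, and an open triangle marks 0 counts. The 8 inflammatory genes stand highest in WT GFP-negative libraries and lowest in GFP-positive ones, where Cxcl2 lies between 0.493 and 1.49 CPM. Cxcl12 stays between 51.4 and 283 CPM in all 8 libraries.

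Among the neutrophil-attracting ligands, Cxcl2 measured 63.0 CPM in WT GFP-negative forelimb and 30.7 CPM in hindlimb, and 5.14 and 2.83 CPM in the same limbs of Y440X. Both WT libraries lay above both Y440X libraries, and WT was 11.8-fold higher by the means, 12.2-fold in forelimb and 10.9-fold in hindlimb. Its paralog Cxcl3 was at 4.15 and 1.03 CPM in WT and at 0.156 and 0.0831 CPM in Y440X. The groups again did not overlap, as in 73.3% of the listed genes in this direction, but Cxcl3 rested on 12 counts in the 2 Y440X libraries together, and its ratio was 26.5-fold in forelimb and 12.4-fold in hindlimb.

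Of the monocyte- and macrophage-attracting ligands, Ccl3 measured 21.1 CPM (forelimb) and 18.2 CPM (hindlimb) in WT against 3.62 and 4.32 CPM in Y440X. Its neighbour Ccl4 was at 13.3 and 10.8 CPM in WT and at 2.42 and 1.93 CPM in Y440X. WT was 4.95-fold higher for Ccl3 and 5.52-fold for Ccl4, with no overlap. Ccl9, the third gene of the cluster, was at 8.46 and 6.00 CPM in WT and at 2.91 and 2.51 CPM in Y440X. It had the smallest difference of the 8, although its groups did not overlap either.

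The other ligands were scarcer. Ccl12 measured 2.94 and 2.13 CPM in WT forelimb and hindlimb and 0.860 and 0.561 CPM in Y440X, a 3.57-fold difference without overlap. Ccl24 was at 2.69 and 1.37 CPM in WT and at 0.313 and 0.291 CPM in Y440X, a 6.72-fold difference without overlap. Tnf, the cytokine among them, was at 11.1 and 5.66 CPM in WT and at 2.13 and 1.43 CPM in Y440X. Both WT libraries were above both Y440X libraries for Tnf, by 4.69-fold on average.

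Cxcl12 measured 283 and 258 CPM in WT GFP-negative forelimb and hindlimb, and 247 and 251 CPM in Y440X. The WT libraries were above the Y440X libraries, as for 51.1% of the 229 genes not listed in this fraction, by a margin smaller than the spread between the WT limbs. The log2 fold change was -0.12 ± 0.13 (SE), with a 95% interval of -0.38 to 0.14 and an edgeR adjusted p of 0.429 over all 739 genes. Of the 229 genes not listed here, 17.9% were called lower and 1.75% higher when adjusted among themselves (0.525 for Cxcl12). With scaling factors taken from the listed genes, which moved the median of all genes up by 1.07 on the log2 scale, Cxcl12 measured 0.96 (edgeR adjusted p = 0.000621).

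Levels of different genes were compared per length of gene. In WT GFP-negative forelimb and hindlimb, Cxcl2 was at 58.1 and 28.4 RPKM and Cxcl12 at 39.5 and 36.0 RPKM, so these 2 could not be ordered beyond the spread between limbs. Ccl3 (26.7 and 23.1 RPKM) and Ccl4 (20.2 and 16.3 RPKM) came next, without overlap with each other. Tnf was at 6.70 and 3.42 RPKM, Ccl12 at 5.49 and 3.98, Cxcl3 at 4.07 and 1.01, Ccl9 at 2.81 and 1.99 and Ccl24 at 2.08 and 1.06, and neighbours in this order overlapped. In Y440X GFP-negative cells Cxcl12 stood alone at 34.4 and 35.0 RPKM, above Ccl3 at 4.58 and 5.47 and Cxcl2 at 4.75 and 2.61 RPKM.

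Macrophage markers were lower with the inflammatory genes. The 15 markers in the tables, among them the mannose receptor Mrc1, the growth factor receptor Csf1r and the coagulation factor F13a1, were all listed for this contrast, so that their direction, like that of the 8, came with the choice. They had log2 fold changes from -3.33 to -1.14, and their summed level was 3.85-fold higher in WT. Mrc1 was at 153 and 141 CPM in WT and at 29.1 and 22.7 CPM in Y440X. Levels as a share of the macrophage sum are descriptions, because the same libraries and contrast chose the 8 genes and the markers. Such shares were not computed for the other listed genes. On this scale Ccl12 and Tnf overlapped between genotypes. Tnf stood at 1.81% and 1.08% of the sum in WT and at 1.31% and 1.09% in Y440X. The share of Cxcl2 was 10.3% and 5.86% in WT and 3.16% and 2.14% in Y440X, without overlap. The share of Cxcl3, Ccl24, Ccl4 and Ccl3 was also lower in both Y440X libraries, by -2.46, -0.76, -0.52 and -0.33 on the log2 scale, and that of Ccl9 was higher by 0.55. These shares, and which of them overlapped, depend on the markers summed. Mrc1, the marker with the highest mean level, had a log2 fold change of -2.50, against -1.64 for Csf1r and -1.14 for Ptprc. The part of the macrophage markers in the results was not tested. Neutrophil markers, 4 of 8 in the tables, went the other way in the same cells, from a sum of 1.46 to 1.54 CPM in WT to 11.7 to 15.9 CPM in Y440X. Of the 5 mast cell markers, 0 were in the tables.

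**Figure D2:**
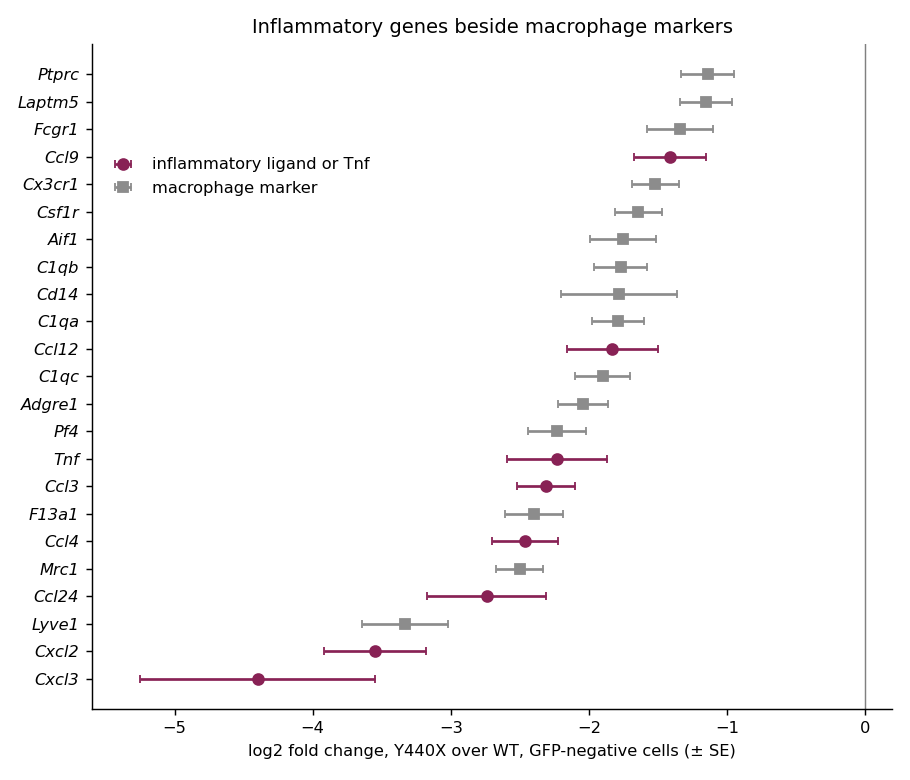
Log2 fold change of Y440X over WT in GFP-negative cells (points, with bars of ± 1 SE from edgeR) for the 8 inflammatory genes and the 15 macrophage markers, sorted by size. Cxcl3 and Cxcl2 lie to the left of every marker, Ccl9 lies among the markers nearest 0, and the other inflammatory genes fall within the range of the markers.

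In GFP-positive cells, whose genotype contrast did not choose the 8 inflammatory genes, the main edgeR fit called Cxcl2 and Tnf higher in Y440X. The other 6 did not pass the test. Cxcl2 and Tnf lost the call in DESeq2 and in limma. Both had edgeR adjusted p-values under 0.05 over all 739 genes, a call that 15.8% of these genes passed in the upward direction and 40.1% downward. Of the 739, 303 were listed for this very contrast. Among the 436 that were not, as the 8 were not, 9.4% were called higher and 15.8% lower, against 2 and 0 of the 8, too few genes to set apart from these shares. The median log2 fold change of the 8 was 0.54, against -0.47 over all listed genes and -0.06 over the 436 genes not listed for this fraction, but for 6 of the 8 it rests on 9 or fewer counts per library.

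Cxcl2 measured 0.985 and 0.493 CPM in WT GFP-positive forelimb and hindlimb, from 38 and 21 counts, and 1.32 and 1.49 CPM in Y440X, from 60 and 67 counts. Both Y440X libraries were above both WT libraries, and the log2 fold change was 0.94 ± 0.36 (edgeR adjusted p = 0.028). Tnf was at 0.363 and 0.188 CPM in WT (14 and 8 counts) and at 0.790 and 0.446 CPM in Y440X (36 and 20 counts). The groups did not overlap, and the log2 fold change was 1.18 ± 0.47 (edgeR adjusted p = 0.0337). A difference without overlap in this direction was seen for 27.3% of the genes not listed here. Neither call held when adjusted over the 436 genes not listed for GFP-positive cells (0.0782 for Cxcl2 and 0.0853 for Tnf, where 3.44% of genes were called higher), in DESeq2 (0.123 and 0.178), in limma (0.0634 for both), or with all 8 libraries fitted together (0.095 and 0.076). Without the WT hindlimb library the log2 fold changes were 0.51 and 0.76, with edgeR adjusted p of 0.318 and 0.316. Cxcl2 was also lost without the Y440X hindlimb library (0.0629), and Tnf without the WT forelimb (0.0783) or the Y440X forelimb library (0.323).

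The remaining 6 genes were at the bottom of the range in GFP-positive cells. Ccl3 had 7 and 4 counts in WT and 8 and 7 in Y440X, with overlapping levels of 0.181 and 0.094 CPM against 0.176 and 0.156 CPM. Ccl4 had 5 and 1 counts in WT and 5 and 6 in Y440X, and Ccl9 had 3 and 7 in WT and 1 and 3 in Y440X. Both Y440X levels of Ccl9 (0.022 and 0.0669 CPM) were below both WT levels (0.0778 and 0.164 CPM), in the direction opposite to Cxcl2 and Tnf. Ccl12 had 0 and 1 counts in WT and 9 and 1 in Y440X, so that a single library carried it. Ccl24 had 1 to 3 counts in each library and Cxcl3 0 to 2. None of these 6 passed the main test, with edgeR adjusted p from 0.0713 for Ccl12 to 0.839 for Cxcl3. At these depths the lack of a call does not show that the genotypes were alike. Ccl12 passed the test when scaled to the listed genes (0.0139) and without the Y440X hindlimb library (0.0264).

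Cxcl12 was 2.29-fold higher in Y440X GFP-positive cells, the contrast that chose it. Its levels were 51.4 and 62.0 CPM in WT forelimb and hindlimb and 137 and 123 CPM in Y440X. The groups did not overlap, with ratios of 2.67 in forelimb and 1.98 in hindlimb. In the authors' deposited table it has a log2 fold change of 1.19 and an FDR of 0.00231, rank 4 of the 76 genes listed as higher. In the same libraries the cartilage sum was lower in Y440X, as given above. The stromal markers Ebf1, Ebf2 and Ebf3, 3 of 10 in the tables, summed to 390 to 446 CPM in WT and to 467 to 538 CPM in Y440X. Of these 3, 0 were called, and Ebf1 had a log2 fold change of -0.06. In GFP-negative cells, where Cxcl12 was nearly level, the same sum was 646 to 807 CPM in WT and 299 to 384 CPM in Y440X. Endothelial markers, 5 of 7 in the tables, summed to 11.2 to 11.3 CPM in WT and to 15.6 to 17.7 CPM in Y440X. Epithelial markers, 5 of 5, went from 15.2 to 15.4 CPM to 44.9 to 65.1 CPM. Macrophage markers summed to 15.7 to 15.9 CPM in WT and to 10.3 to 13.4 CPM in Y440X, but single markers went both ways, with 9 of the 15 above 0, a median log2 fold change of 0.37, and 2 called higher and 3 lower. The lower sum included F13a1, at 3.03 CPM in both WT libraries and at 1.30 and 0.959 CPM in Y440X, and Laptm5, at 5.94 and 7 CPM and at 3.43 and 2.85 CPM. The part of these cell types in the results was not tested.

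**Figure D3:**
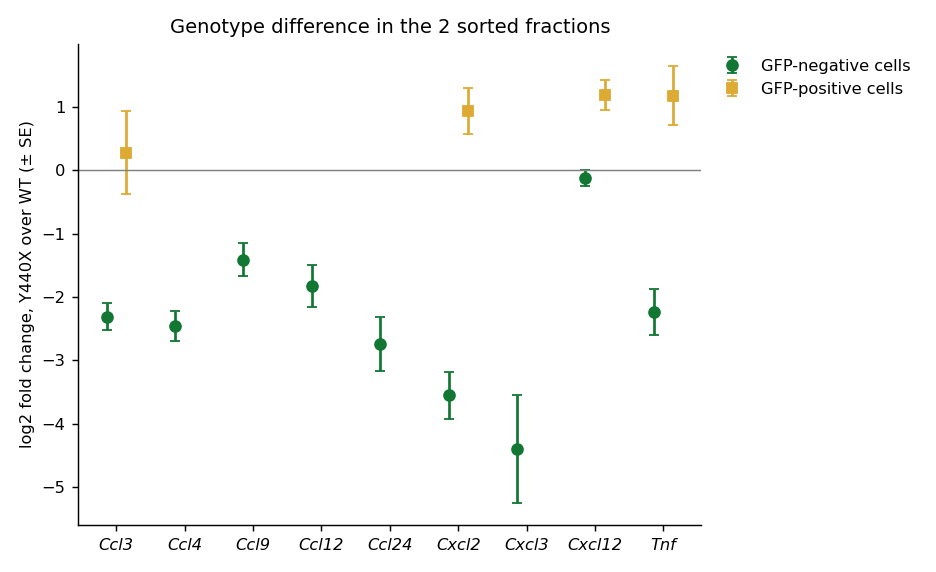
Log2 fold change of Y440X over WT (± 1 SE from edgeR) in GFP-negative cells (green circles) and GFP-positive cells (yellow squares); genes with 3 or fewer counts in any GFP-positive library are shown for GFP-negative cells alone. Cxcl2 and Tnf lie below 0 in GFP-negative and above 0 in GFP-positive cells, and Cxcl12 lies near 0 in GFP-negative and at 1.19 in GFP-positive cells.

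For Cxcl2 and Tnf the genotype difference thus had opposite signs in the 2 fractions, although neither GFP-positive call held in DESeq2 or limma. The difference between fractions was not tested, because 1 of its terms chose the genes.

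Averaged over the genotypes, all 9 genes were lower in GFP-positive than in GFP-negative cells, Cxcl12 least. This contrast did not choose the genes, although their small spread in the same libraries entered the choice. The 8 inflammatory genes could be listed only with enough counts in WT GFP-negative cells, which favours a higher level in that fraction. Cxcl12, listed for GFP-positive cells alone, had to be measurable there, which favours a smaller difference between fractions. How far Cxcl12 stood apart from the 8 thus came in part with the choice. All 9 passed the edgeR test, against 48.8% of the 739 genes called lower and 65.4% of the 436 listed for GFP-negative cells alone. For all 9 every GFP-positive library lay below every GFP-negative one, against 33.7% of the 739 and 48.6% of the 436. The log2 fold change was -1.60 ± 0.14 for Cxcl12 (edgeR adjusted p = 1.32e-07), a 3.02-fold difference. It ran from -3.23 ± 0.33 for Tnf (edgeR adjusted p = 3.75e-07) to -5.85 ± 0.29 for Ccl3 (edgeR adjusted p = 7.53e-11) among the 8 inflammatory genes, with a median of -4.61 against -0.52 over all listed genes. The 95% interval of Cxcl12 was -1.87 to -1.32, and the nearest of an inflammatory gene ended at -2.07 for Cxcl3. This gap was not tested, because the choice of the genes favoured it. The macrophage markers were all lower too, with a median of -4.51. All 9 calls held without any 1 library and under each other test and scaling tried.

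Within each genotype, the level in GFP-positive cells is given as a percentage of that in GFP-negative cells, with 95% intervals from the exact binomial (Clopper-Pearson) interval of the 2 summed counts, which cover counting error only. In WT, Ccl3 stood at 0.689% (0.343 to 1.24), Ccl4 at 0.613% (0.224 to 1.34), Cxcl2 at 1.54% (1.17 to 1.99) and Tnf at 3.21% (2 to 4.9). These were near the 2.78% (2.63 to 2.94) of the summed macrophage markers or below it, whereas Cxcl12 stood at 21% (20.4 to 21.7). In Y440X, Ccl3 stood at 4.19% (2.32 to 7), Ccl4 at 5.57% (2.74 to 10.2) and Ccl9 at 1.63% (0.440 to 4.21), against 8.01% (7.52 to 8.53) of the macrophage sum. Ccl12 at 15.5% (7.11 to 30.1), Ccl24 at 11% (2.14 to 35.3) and Cxcl3 at 27.5% (4.97 to 102) were above it with intervals that reached below it. Cxcl2 at 35% (28.4 to 42.8) and Tnf at 34.5% (25.1 to 46.9) lay above it with their whole intervals, and Cxcl12 stood at 52.2% (51.1 to 53.4). Single macrophage markers spread widely around their sum. In Y440X, Lyve1 was at 0.768 and 0.268 CPM in GFP-positive and at 1.99 and 1.08 CPM in GFP-negative cells. Mrc1 was at 1.71 and 0.914 CPM against 29.1 and 22.7 CPM. In WT, Laptm5 alone gave 5.94 and 7 CPM of the GFP-positive sum of 15.7 to 15.9 CPM. The percentages share libraries with the contrasts that chose the genes and were not tested.

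Between limbs, over the 4 groups together, Cxcl2, Cxcl3 and Tnf were lower in hindlimb than in forelimb. In a fit of limb beside group over all 8 libraries their log2 fold changes of hindlimb over forelimb were -0.73 ± 0.18, -1.79 ± 0.35 and -0.82 ± 0.19, with edgeR adjusted p of 0.0391, 0.0139 and 0.0271. Of the 739 genes, 4.06% were called in this direction. Listing favoured genes with a small spread between the limbs of a group, which may keep this share low. Both sorted fractions of a limb and genotype were taken from the same pool of buds. The fit nevertheless counted all 8 libraries as independent, so its p-values may be too small and the limb calls are tentative. The other 6 genes did not pass. The 95% interval of the log2 fold change was -0.42 to 0.32 for Ccl3 and -0.23 to 0.23 for Cxcl12.

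In WT GFP-negative cells all 8 inflammatory genes were higher in forelimb, from 1.15-fold for Ccl3 to 4.01-fold for Cxcl3, as were 67.8% of all listed genes. In Y440X GFP-negative cells 7 of 8 were, against 60.8%, the exception being Ccl3. In the GFP-positive libraries 6 of 8 in WT and 3 of 8 in Y440X were higher in forelimb, against 57.9% and 53.6% of all listed genes. Cxcl2 (1.32 CPM in forelimb, 1.49 CPM in hindlimb) and Cxcl3 (0.022 and 0.0446 CPM) were higher in hindlimb in Y440X GFP-positive cells. The macrophage marker Cd14, a co-receptor of the lipopolysaccharide response, had a like limb difference, at 21.5 and 10.4 CPM in WT and at 6.32 and 2.93 CPM in Y440X GFP-negative forelimb and hindlimb. It was the only macrophage marker of 15 called between limbs. The 3 limb calls were lost, 0 of 9 remaining, without either WT GFP-negative library or either Y440X GFP-positive library, in limma, and in the GFP-positive libraries alone. Without either WT GFP-negative library the value of Cxcl3 was -0.79 in place of -1.79, and in DESeq2 Cxcl3 did not pass (adjusted p = 0.0677).

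**Figure D4:**
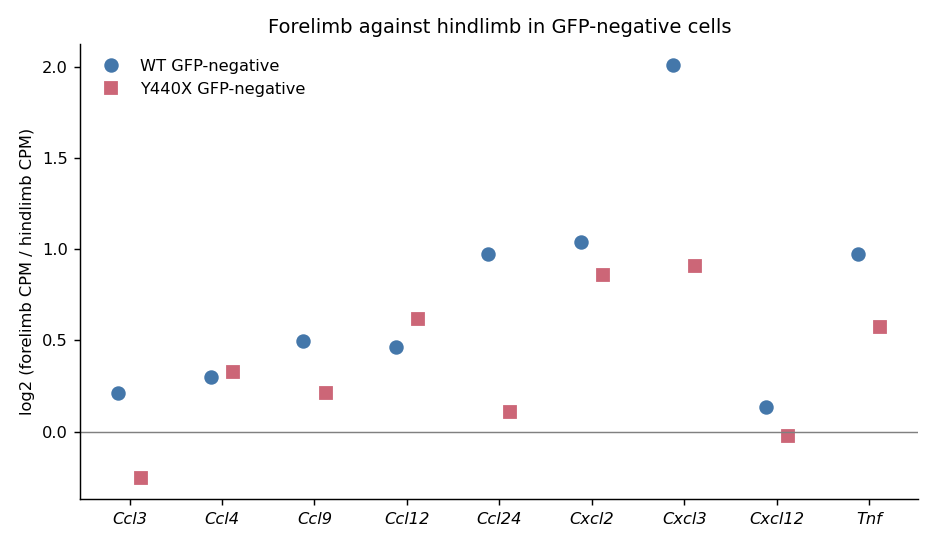
Log2 ratio of forelimb CPM to hindlimb CPM for each gene in GFP-negative cells of WT (blue circles) and Y440X (red squares), 1 library per limb. All points of the inflammatory genes but that of Ccl3 in Y440X lie above 0, with Cxcl3 in WT highest at 4.01-fold, and both Cxcl12 points lie near 0.

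Genes of the same pathways that were in the tables had mostly been listed for the same contrast. Of 30 further chemokine ligands 1 was present, platelet factor Pf4, a product of platelets and fetal macrophages. It was at 17.5 and 14.9 CPM in WT and at 3.52 and 3.39 CPM in Y440X GFP-negative cells. In GFP-positive cells Pf4 was called higher in Y440X (log2 fold change 1.27 ± 0.50, edgeR adjusted p = 0.0292). Its levels there were low, 0.207 and 0.211 CPM in WT and 0.659 and 0.357 CPM in Y440X. Whether the call held under the settings that removed those of Cxcl2 and Tnf is not given here. Of 22 chemokine receptors 4 were present. The macrophage receptors Cx3cr1 and Ccr1, the latter a receptor of Ccl3, were lower in Y440X GFP-negative cells. Ccr1 was at 5.67 and 5.95 CPM in WT and at 1.41 and 1.29 CPM in Y440X.

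Ackr3, the scavenger of CXCL12, was at 131 and 113 CPM in WT GFP-negative cells and at 63.5 and 55.6 CPM in Y440X, so it was lower where Cxcl12 was nearly level. In GFP-positive cells it was at 97.2 and 116 CPM in WT and at 70.3 and 83.2 CPM in Y440X, a log2 fold change of -0.47 ± 0.24 (edgeR adjusted p = 0.107). Unlike Cxcl12, Ackr3 did not pass the test between fractions (0.09 ± 0.14, edgeR adjusted p = 0.582). Cxcr5, the receptor of B-cell follicle homing, was the single chemokine receptor called in GFP-positive cells, where it was lower in Y440X (1.87 and 2.28 CPM in WT, 1.10 and 0.981 CPM in Y440X, edgeR adjusted p = 0.00723). Of the 436 genes not listed for GFP-positive cells, 15.8% were called lower there. Whether the Cxcr5 call held under other settings is not given here.

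Of 30 TNF superfamily members and receptors 3 were present. The TNF receptor Tnfrsf1b was at 11.3 and 6.33 CPM in WT GFP-negative cells and at 3.62 and 3.41 CPM in Y440X. The osteoclast factor Tnfsf11 (RANKL) was at 3.28 and 1.82 CPM and at 0.626 and 0.353 CPM in the same groups. In GFP-positive cells Tnfsf11 rose with Y440X, from 0.596 and 0.775 CPM to 2.83 and 1.54 CPM (log2 fold change 1.66 ± 0.35, edgeR adjusted p = 0.000358). Of 28 genes of NF-kB feedback and the immediate early response 3 were present. Cd83, a membrane protein of activated antigen-presenting cells, was at 44.2 and 31.7 CPM in WT GFP-negative cells and at 21.7 and 12.8 CPM in Y440X. The phosphatase Dusp2 was at 15.1 and 7.48 CPM in WT GFP-negative cells and at 4.52 and 3.37 CPM in Y440X. The NF-kB cofactor Bcl3, listed for GFP-positive cells, was lower there in Y440X, opposite to Cxcl2 and Tnf, at 4.59 and 5.29 CPM in WT and at 0.856 and 0.803 CPM in Y440X. Of 28 other inflammatory cytokines and receptors 2 were present, Csf1r and the interleukin-1 receptor antagonist Il1rn.

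Likeness of profile over the 8 libraries was described for Ccl4, Ccl9, Tnf and Cxcl12. It was measured as the root mean square difference between 2 genes' log2 CPM, each centred on its own mean, among 535 genes with a mean of at least 1 CPM. Nearest to Ccl4 were the macrophage genes Cd86, C3ar1 and Ms4a6b, at 0.15, 0.17 and 0.19, against a median of 1.75 over all genes compared. Nearest to Ccl9 were Spi1, the transcription factor of myeloid cells, Cyth4 and Vav1, at 0.14, 0.23 and 0.24 (median 1.59). Nearest to Tnf were Slc15a3, Cd14 and Hk3, at 0.21, 0.26 and 0.28 (median 1.33). Nearest to Cxcl12 were Card10, Myo5b and Il1rl2, at 0.20, 0.27 and 0.28 (median 1.13). Each of these genes was listed for the same fraction as the gene it resembled, which the use of the same libraries favours.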

How the data were processed

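Tissue, sorting and groups are described in the report. Libraries were made from 100 ng of total RNA with a stranded poly(A) kit, per the labels' protocols. The submitters' processing notes list the tools featureCounts and edgeR 3.36.0 as well as the genome builds mm10 and GRCm38. Neither the aligner nor the use of strand in counting is stated there: both are not given in the sources used here.

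Each of the 4 deposited tables has 1 column per library that the file headers call RPKM. The deposited values are whole-number read counts (0 values were not whole), and their ratio to the CPM of the authors did not vary with gene length. The authors' own comparison columns hold a log2 fold change and a log2 average CPM, a test score (F) and a p-value with its FDR, per the file headers. Another column holds gene length in bases (a unit named other), per the file headers.

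Because the tables hold only listed genes, effective library sizes were solved from the logCPM and fold change columns by robust least squares, using 165 genes of 200 or more counts, with a median absolute residual of 0.000139 for the fold changes. Depth therefore means these sizes, and 1 count corresponds to 0.0196 to 0.0259 CPM. No sample column was left unused (0). Intervals of percentages cover counting error only.

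edgeR 4.0.16 in R 4.3.3 (glmQLFit, glmQLFTest) was fitted to all 739 genes with these sizes and no further scaling, each fraction alone for genotype and all 8 libraries for fraction and limb. P-values were two-sided and adjusted by Benjamini-Hochberg over the 739 genes, with calls at 0.05, and the fits were tested on simulated data. DESeq2 1.42.0 and limma 3.58.1 on log2(CPM + 0.5), TMM and median-of-ratios scaling over the listed genes, a filter of at least 10 counts in 2 libraries, limb as a block, and leaving out each library were alternatives.

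The replicate number marks the limb in every group, per the labels, so same-numbered libraries share a limb but, between genotypes, no animals. Deviations of forelimb from hindlimb correlated at 0.45 between the GFP-positive groups and 0.48 between the GFP-negative groups, and at 0.14 and 0.22 between fractions of a genotype (541 genes). The test of Cxcl12 in GFP-negative cells was added after the files were seen.

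The 9 genes and all gene and marker lists were chosen with earlier results of these data known. All 9 were named. From other lists at most 4 genes per list were named, chosen from those with the highest mean CPM. Laptm5, Lyve1, the Cd14 limb difference and genes behind a count of 5 or fewer were named after their values were seen. Likeness used log2(CPM + 0.5) and named the 3 nearest genes for Cxcl12, Ccl9, Ccl4 and Tnf. Shared transcript stretches and coordinates came from GENCODE M21, promoters from RefSeq.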

Additional observations from a re-analysis of the deposited data

Results flagged for a closer look

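The genotype difference of 3 genes had opposite signs in the 2 sorted fractions, in libraries that did not overlap between genotypes in either fraction. Lack of overlap was common. Of the 436 genes not listed for GFP-positive cells, 27.3% were higher there without overlap. Of the 229 not listed for GFP-negative cells, 51.1% were lower there without overlap. The log2 fold change of Y440X over WT in GFP-positive cells minus that in GFP-negative cells was 4.48 for Cxcl2, 3.40 for Tnf and 1.31 for Cxcl12. These differences between fractions were not tested, because in each case 1 of the 2 fold changes had chosen the gene. For Cxcl12 the value in GFP-negative cells, -0.12, did not pass its own test and turned to 0.96 under scaling to the listed genes. The GFP-positive calls of Cxcl2 and Tnf did not hold in DESeq2, in limma, with adjustment over unlisted genes or with all 8 libraries fitted.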

How the results depend on the processing

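Of 494 values recomputed under other settings, 61 belonged to the counts of calls and to Cxcl12 in GFP-negative cells, and 45 of these stayed within 1.5 times the count or kept the call of Cxcl12. The fraction calls numbered 9 in every fit and the genes past 2-fold in GFP-negative cells 8 without any 1 library and 6 under TMM. The 2 calls in GFP-positive cells (Cxcl2, Tnf) became 0 in DESeq2, in limma, with adjustment over unlisted genes and with all 8 libraries fitted, and 0 to 2 without 1 library (Ccl12 and Tnf, not Cxcl2, without the Y440X hindlimb library), and 3 with Ccl12 under both scalings; the cause was not tested. The 3 limb calls became 2 in DESeq2, 0 in limma and in GFP-positive libraries alone, 1 with median-of-ratios scaling, and 0 to 3 without 1 library, where the lone library's group leaves the limb term. Scaling to the listed genes moved the median log2 fold change up by 0.66 (TMM) or 0.58 (median-of-ratios) in GFP-positive and by 1.07 in GFP-negative cells, and with it Cxcl12 in GFP-negative cells from -0.12 to 0.96 in both. It also turned Ccl24 in GFP-positive cells to 0.09 and 0.01, and the limb values of Ccl3 to 0.07 and 0.11 and of Cxcl12 to 0.06 and 0.11. The limb value of Cxcl12 was 0.00 in limma and 0.05, and that of Ccl9 1.18, in GFP-positive libraries alone. Without 1 library the values in GFP-positive cells ran from -0.13 to 0.80 for Ccl3, -0.09 to 2.24 for Ccl4, -1.16 to 0.45 for Ccl24 and -0.60 to 3.67 for Cxcl3, and between limbs from -0.27 to 0.07 for Ccl3, -0.32 to 0.03 for Ccl9 and -0.09 to 0.05 for Cxcl12. With limb as a replicate block the calls stayed at 2 in GFP-positive cells (edgeR adjusted p = 0.002 for Cxcl2 and 0.00637 for Tnf) and at 9 between fractions, and Cxcl12 in GFP-negative cells measured -0.12 (0.179), so the block changed no call. A group left with 1 library was assumed to vary like the others. Depth limits the GFP-positive values of 6 genes, where 3 counts correspond to 0.0659 to 0.0778 CPM.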
